A study of Mus musculus with 12 samples.

Results

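The 8 secreted regulators of blood vessel growth described here lie outside the VEGF family and were followed in mouse fibroblasts that carried an inducible N-VEGF construct. They were the angiopoietin-like proteins Angptl2 and Angptl4, the angiopoietins Angpt1 and Angpt2, the thrombospondins Thbs1 and Thbs2, the hepatocyte growth factor Hgf and the pigment epithelium-derived factor Serpinf1. The rows were taken by gene name, and all 8 of the 8 members were found among the 54447 features of the count table. All 8 passed the filter on low counts, as did 13608 features in all. The set was chosen knowing that Angptl4 was higher with doxycycline (dox), so its dox values are given below as a description, with no test.

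The cells are described in the labels as mouse embryonic fibroblasts and in the study's methods as NIH3T3, an immortalised mouse embryo fibroblast line. All cells carried a lentiviral Tet-on vector with a His-tagged coding sequence and were pools selected with puromycin, not clones. NLS-N-VEGF cells expressed N-VEGF, the amino-terminal part of the long VEGF-A isoform, behind a nuclear localization sequence, and N-VEGF cells expressed the same protein without it. Each population was sequenced without and with dox, in 3 libraries a group and 12 in all. No cells without the construct were given dox in these libraries, so an effect of dox itself and an effect of the induced protein cannot be told apart within a population. The question behind the design was what N-VEGF does to transcription once it is in the nucleus under normal oxygen.

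The library labels hold a number and a suffix. Every group had libraries 1 and 2 of suffix _120519 and a library 2 of suffix _290419, and the labels do not say what the suffix stands for. Values below are given in that order. Levels are in counts-per-million (CPM) after TMM scaling, which sets library sizes from the trimmed mean of log ratios. Total counts lay between 13549331 and 18982127 per library, and 3 counts, taken as the smallest level the depth could show, were worth 0.158 to 0.221 CPM. The construct insert had 5 to 12 counts in the libraries without dox and 35 to 268 in those with dox. The suffix was the main axis of variation, with 58.1% of the variance on the first principal component, and library 1 of N-VEGF cells without dox stood apart on the second component (11.3%). Of 11 fibroblast markers, 10 were well expressed (summed level 11480 to 14390 CPM), and Lum was at 0 counts in 5 libraries. The 10 endothelial markers summed to 3.77 to 5.74 CPM in every library, and Cldn5 was at 0 in 12 libraries and Kdr at 0 in 10. Of the 10, 4 passed the filter, Cdh5 at a mean of 2.48 CPM, Esam at 0.82, Pecam1 at 0.63 and Tie1 at 0.47 CPM.

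As background, new vessels grow where inducers such as VEGF-A outweigh inhibitors, and fibroblasts supply both from the stroma. Angiopoietins signal through the endothelial receptor Tie2 (Tek), where Angpt1 steadies vessels and Angpt2, made mainly by endothelium, opposes it in many settings. Thrombospondins are matrix glycoproteins that restrain endothelial cells through Cd36 and Cd47, and Thbs1 also activates latent TGF-beta. Hgf is the stromal ligand of the receptor tyrosine kinase Met. Serpinf1 is an anti-angiogenic serpin without protease-inhibiting activity. Angptl4 inhibits lipoprotein lipase and is a well-known target of peroxisome proliferator-activated receptors (PPARs) and of hypoxia-inducible factors. Angptl2 is a secreted glycoprotein linked to inflammation in fat and to vessel growth.

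Compared per length, in transcripts-per-million (TPM), Serpinf1 was the most abundant of the 8 at 502.3 ± 29.8 TPM (SD, n = 12, 366.1 to 450.7 CPM). Angptl2 followed at 208.4 ± 12.03 TPM and Thbs2 at 202.2 ± 38.6 TPM (SD, n = 12), and the ranges of these neighbours over libraries overlapped. Angptl4 had 77.3 ± 16.3 TPM (SD, n = 12). Its position in the count table, alone among the members, differed from that in the annotation that gave the exon length, so this value is less certain. Thbs1 had 32.8 ± 22.8 TPM and Hgf 32.1 ± 16.0 TPM (SD, n = 12), with ranges of 12.6 to 71.8 and 7.11 to 51.3 TPM. The angiopoietins were the lowest of the 8, Angpt1 at 1.40 ± 0.53 TPM and Angpt2 at 0.93 ± 0.25 TPM (SD, n = 12). The fibroblasts thus carried RNA of anti-angiogenic Serpinf1 and Thbs2 and of Angptl2 at a far higher level than RNA of the angiopoietins.

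**Figure D1:**
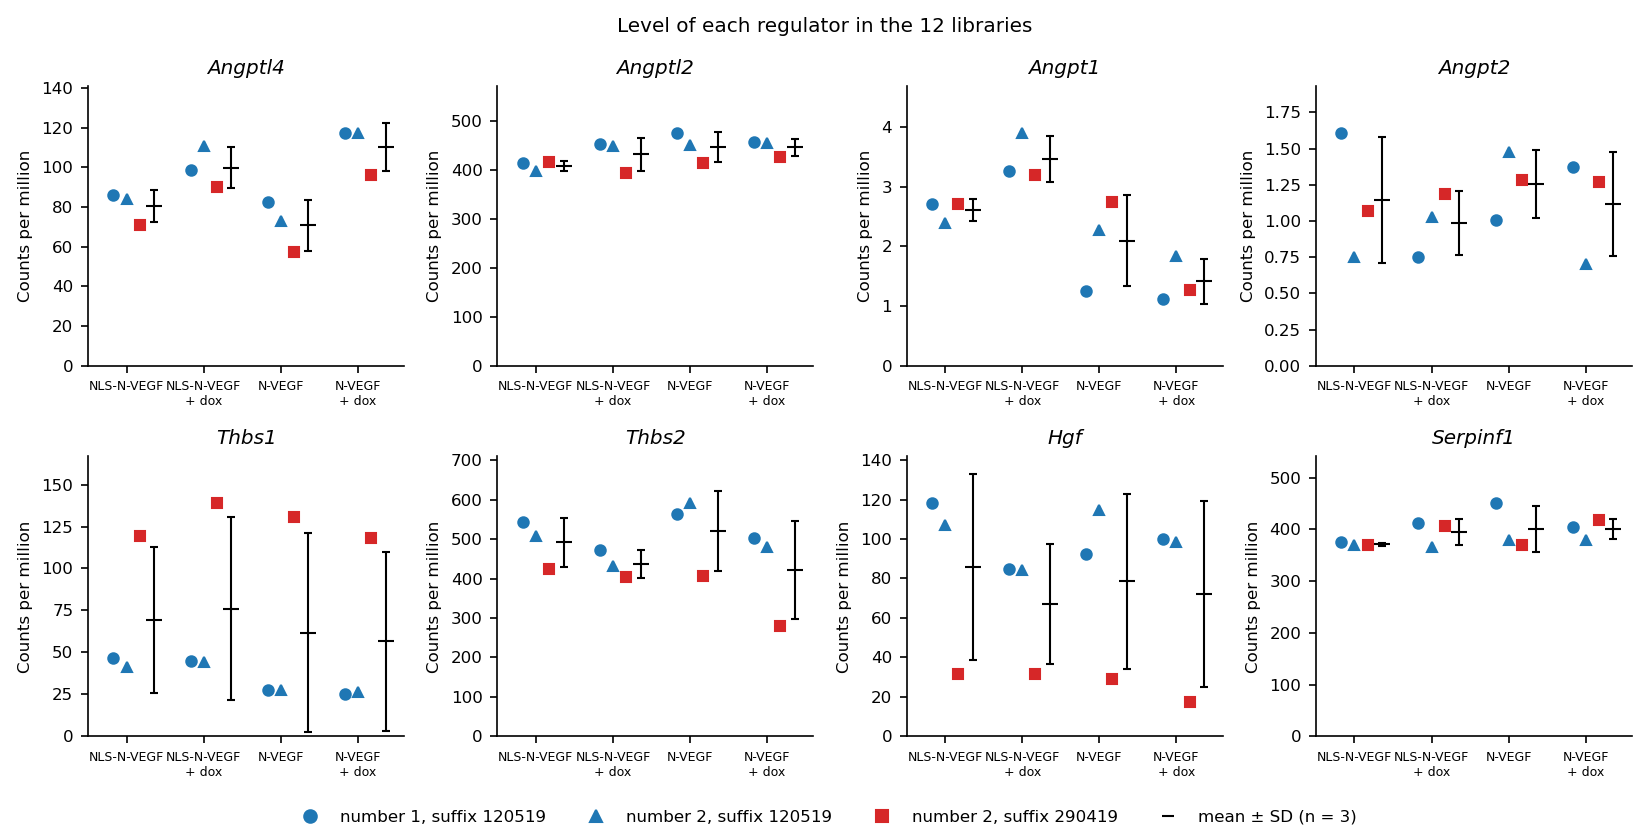
Level of each regulator in every library, in CPM on a linear axis that starts at 0. Points are libraries, blue for suffix _120519 and red for suffix _290419, and black marks are the mean ± SD of the 3 libraries of a group. Angptl4 was higher with dox in both populations, whereas Thbs1, Thbs2 and Hgf separated by suffix.

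Angptl4 (ENSMUSG00000002289, chromosome 17, 33773750 to 33781575 of build GRCm38, minus strand) was the member picked for its dox values. Uninduced NLS-N-VEGF libraries stood at 85.9, 84.1 and 71.1 CPM and induced ones at 98.6, 111.0 and 90.2 CPM. All 3 libraries with dox lay above all 3 without. Uninduced N-VEGF libraries stood at 82.5, 72.8 and 57.2 CPM and induced ones at 117.5, 117.3 and 96.3 CPM, again without overlap. Groups that did not overlap made up 9.25% of tested genes in NLS-N-VEGF and 3.92% in N-VEGF cells, and nothing is read from this for a gene chosen on the contrast. The log2 fold change was 0.31 (SE 0.14) for NLS-N-VEGF and 0.64 (SE 0.14) for N-VEGF cells. With number and suffix as a block in the fit it was 0.32 (SE 0.08) and 0.65 (SE 0.08). These values chose the member, and no test is given for them. Between libraries that share a number and suffix, the log2 ratio was 0.20, 0.40 and 0.34 in NLS-N-VEGF cells and 0.51, 0.69 and 0.75 in N-VEGF cells. Every pair of N-VEGF cells thus had a larger ratio than every pair of NLS-N-VEGF cells. The share of all genes with this pattern was not counted, and the ratios are those of the choice, so nothing is read from it. The difference of the effects was -0.33 (SE 0.20, or 0.11 with the block). The populations were also compared without dox. Those libraries are the baselines of the dox ratios that chose the gene, so the test is not independent of the choice and nothing is read from it. The difference of 80.4 ± 8.06 against 70.8 ± 12.8 CPM (SD, n = 3) did not pass (log2 fold change 0.18, SE 0.14, edgeR adjusted p = 1). With the block it was 0.19 (SE 0.08, edgeR adjusted p = 0.939).

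Library levels of Angptl4 also differed by suffix within each dox state. The libraries of suffix _290419 were the lowest of their group in all 4 groups, at 71.1, 90.2, 57.2 and 96.3 CPM. Angptl4 was picked on dox and not on the suffix, and with group in the model the log2 fold change of suffix _290419 against _120519 was -0.30 (SE 0.06, edgeR adjusted p = 0.000498). It passed in every one of the 12 fits that each left out a library, with an adjusted p of 4.53e-05 to 0.00356. The background was high, since 45.6% of the 13608 tested genes passed in this contrast. Of the tested genes, 62.9% had a smaller absolute change than Angptl4. Its levels in the 2 suffixes overlapped when the dox states were pooled. The dox ratio was of similar size in both suffixes, and without suffix _290419 the log2 fold changes were 0.29 (SE 0.09) for NLS-N-VEGF and 0.59 (SE 0.09) for N-VEGF cells.

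Over the 12 libraries, the genes most like Angptl4 were Extl2, an exostosin-like glycosyltransferase, with a Pearson r of 0.956 of log2 CPM, Sh3rf1, a ubiquitin ligase and scaffold of stress kinase signalling, with 0.938, and Synj1, a phosphoinositide phosphatase, with 0.919. With each suffix centred on its own mean the values were 0.946, 0.935 and 0.904. They were picked from 12057 genes averaging 1 CPM or more, and only 4 of these had an r over 0.9. The points share library, depth and dox state.

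The other 7 members gave 0 calls for dox in either population, against a background of 3 genes (0.022%) called in NLS-N-VEGF cells and 5 (0.0367%) in N-VEGF cells. None of the 7 had an unadjusted p under 0.05 in either contrast in edgeR, and DESeq2 called 0 of the 7 as well. With number and suffix as a block, the background was 17 genes (0.125%) and 15 genes (0.11%), and again 0 of the 7 members passed, with Thbs2 in N-VEGF cells alone under an unadjusted p of 0.05. The wide intervals of Thbs1 and Hgf without the block, with SE of 0.76 and 0.67 in NLS-N-VEGF cells, went with their difference between suffixes. The intervals of Serpinf1 were narrow, with a 95% CI of the log2 fold change of -0.11 to 0.29 in NLS-N-VEGF and -0.19 to 0.20 in N-VEGF cells. Those of Angptl2 were -0.10 to 0.26 and -0.18 to 0.18. For these abundant members, changes with dox beyond about these bounds were not seen at 3 libraries a group.

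Thbs2 (ENSMUSG00000023885, chromosome 17, 14665500 to 14694235, minus strand) passed no test of dox. Its CPM was lower with dox in all 6 pairs of libraries that share number and suffix. The share of all genes with the same sign in all 6 pairs was not counted, so nothing is read from this pattern. Uninduced NLS-N-VEGF libraries stood at 543.5, 508.3 and 423.4 CPM and induced ones at 473.5, 430.5 and 403.4 CPM. The N-VEGF libraries stood at 564.6, 591.2 and 405.3 CPM before and 503.7, 480.4 and 278.4 CPM after induction. The groups overlapped in both populations, since the library of suffix _290419 was the lowest of each group. With the block its dox effect in NLS-N-VEGF cells was -0.16 on the log2 scale (SE 0.11, edgeR adjusted p = 0.794) and -0.32 (SE 0.11, edgeR adjusted p = 0.613) in N-VEGF cells.

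Hgf (ENSMUSG00000028864, chromosome 5, 16553495 to 16620152, plus strand) varied more between libraries than Thbs2, from 17.5 to 118.2 CPM. Its NLS-N-VEGF libraries stood at 118.2, 107.3 and 31.8 CPM uninduced and at 84.9, 84.4 and 31.7 CPM induced. Its N-VEGF libraries stood at 92.2, 114.6 and 29.1 CPM uninduced and at 100.1, 98.6 and 17.5 CPM induced. The log2 dox ratio of NLS-N-VEGF cells was -0.48 and -0.35 in the suffix _120519 pairs and -0.0044 in the suffix _290419 pair. The fit on suffix _120519 alone gave a log2 change of -0.42 (SE 0.10), which did not pass (edgeR adjusted p = 0.0971, with 0.814% of 13387 genes called). The gene Gm43489 on the same strand overlaps 6.74% of the exon bases of Hgf.

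Thbs2 and Hgf varied together over the 12 libraries, with a Pearson r of 0.888 of log2 CPM, and of 0.884 with each suffix centred on its own mean, whereas Thbs1 and Hgf had -0.909 and 0.018. The points share library, depth and suffix. The r of Thbs2 and Hgf was the highest among pairs of members, and many other genes had higher values. Of 12057 genes, 793 had an r over 0.9 with Hgf and 142 with Thbs2. A shared control of the pair was not tested. The 250 bases before the start sites of Thbs2 and Hgf are shown, from the promoter table of RefSeq. Of the 8 members, 4 had an entry. The sequences are from build GRCm38.p6, 5′ to 3′ on the strand of the gene, at chr5:16553245-16553494 (plus) for Hgf and chr17:14694263-14694512 (minus) for Thbs2, and capitals mark the motif matches.
Hgf: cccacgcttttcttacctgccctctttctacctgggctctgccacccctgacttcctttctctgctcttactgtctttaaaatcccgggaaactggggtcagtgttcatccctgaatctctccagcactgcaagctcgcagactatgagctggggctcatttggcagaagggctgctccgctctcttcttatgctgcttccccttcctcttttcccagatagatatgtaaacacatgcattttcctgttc
Thbs2: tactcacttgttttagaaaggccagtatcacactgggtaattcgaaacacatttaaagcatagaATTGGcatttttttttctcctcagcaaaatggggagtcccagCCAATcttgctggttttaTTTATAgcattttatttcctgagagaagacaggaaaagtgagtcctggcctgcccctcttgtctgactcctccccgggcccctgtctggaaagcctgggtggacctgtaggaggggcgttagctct
The motifs searched on both strands were the TATA box (TATAAA), the CCAAT box (CCAAT), the GC box (GGGCGG) and the AP-1 site (TGANTCA), and no matches overlapped in these windows. The Thbs2 window held the CCAAT box at 2 places and the TATA box at 1, and the Hgf window held none of the 4 motifs. Of 32817 windows of this length in the table, 33.8% held the CCAAT box, 12.4% the TATA box, 32.7% the GC box and 6.75% the AP-1 site. A match is a description of letters and not of a bound site.

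Angpt1 (ENSMUSG00000022309, chromosome 15, 42424723 to 42676977, minus strand) had opposite dox ratios in the populations. NLS-N-VEGF libraries stood at 2.70, 2.39 and 2.71 CPM uninduced and 3.27, 3.90 and 3.20 CPM induced, with no overlap between the groups. Such separation was found in 9.25% of tested genes in that contrast. N-VEGF libraries stood at 1.26, 2.28 and 2.74 CPM uninduced and 1.12, 1.84 and 1.27 CPM induced. The induced library was above its partner in all 3 NLS-N-VEGF pairs and below it in all 3 N-VEGF pairs. The share of all genes with this pattern was not counted, so nothing is read from it. Neither dox effect passed, with log2 fold changes of 0.41 (95% CI -0.204 to 1.015) in NLS-N-VEGF and -0.56 (95% CI -1.21 to 0.092) in N-VEGF cells. The difference of the log2 dox effects was 0.96 (SE 0.41, 95% CI 0.07 to 1.85). It did not pass over all genes (edgeR adjusted p = 1), and 0 of the 13608 genes did in this contrast in edgeR or DESeq2 (116 at an unadjusted edgeR p under 0.05). The counts behind these values were 18 to 61 per library. The antisense gene Gm17473 overlaps 14.2% of the exon bases of Angpt1, and its reads can be counted with it if strand was not used.

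Angpt2 (ENSMUSG00000031465, chromosome 8, 18690263 to 18741562, minus strand) rested on 12 to 28 counts per library. NLS-N-VEGF libraries stood at 1.61, 0.75 and 1.07 CPM uninduced and 0.75, 1.03 and 1.18 CPM induced. N-VEGF libraries stood at 1.01, 1.48 and 1.28 CPM uninduced and 1.37, 0.71 and 1.27 CPM induced. The groups overlapped in every contrast, and intervals of the log2 fold changes with dox, -1.03 to 0.58 and -0.96 to 0.61, leave room for a change of nearly 2-fold at this depth. The receptor of both angiopoietins, Tek, had 0.23 CPM on average, close to the smallest level the depth could show, and did not pass the filter.

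**Figure D2:**
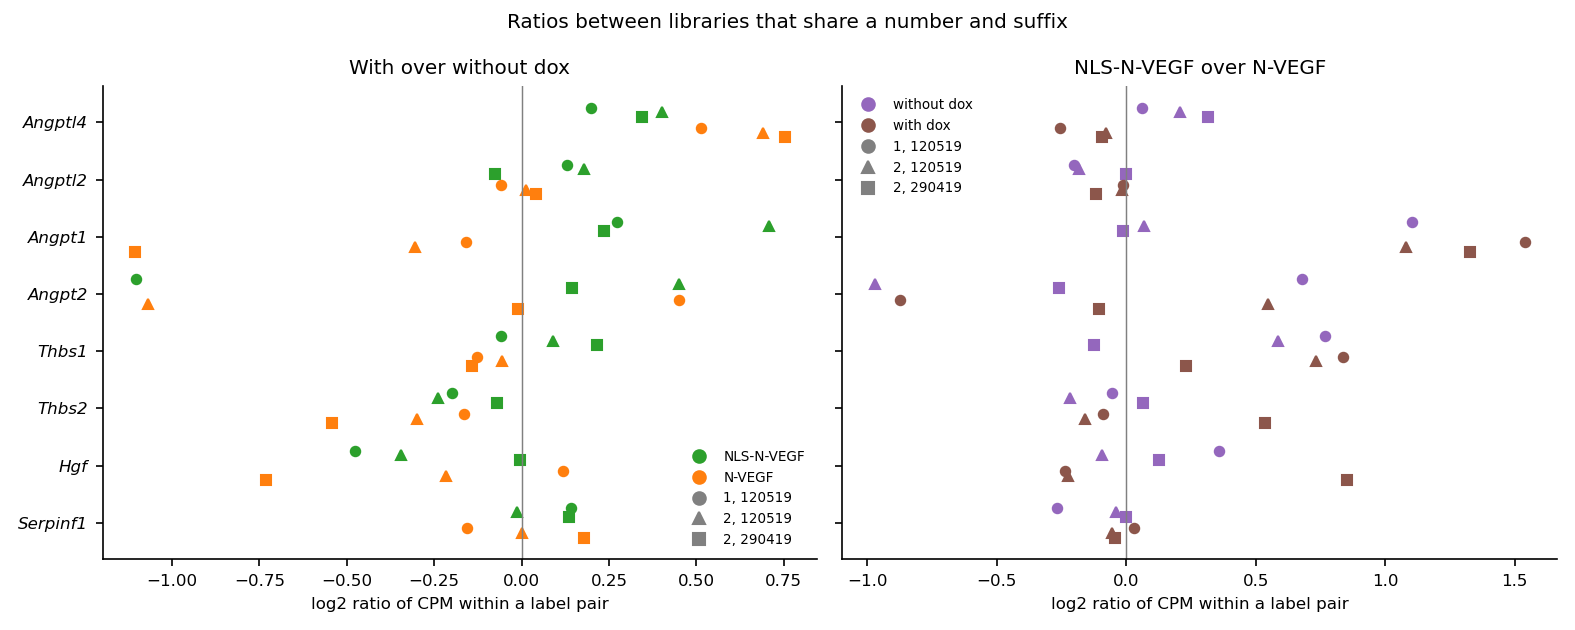
Log2 ratios of CPM between libraries that share a number and suffix, for dox (left) and for NLS-N-VEGF over N-VEGF cells (right). Each point is a pair, its shape gives number and suffix, and 0 is no difference. Angptl4 lay above 0 in all 6 dox pairs and Thbs2 below 0 in all 6, and Angpt1 with dox lay above 1 in all 3 pairs of the populations. The share of all genes with such patterns over pairs was not counted.

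The NLS-N-VEGF and N-VEGF populations were then compared directly. They were separate selected pools, each with its own construct, so an effect of the nuclear form and a difference between the pools cannot be told apart. No member passed in the fit on all 12 libraries, with or without dox, and the background was 0 genes (0%) in both contrasts. At an unadjusted p under 0.05, edgeR had 160 genes with dox and 82 without, and DESeq2 called 0 members and 0 genes in both. With dox, Angpt1 had 3.46 ± 0.39 CPM in NLS-N-VEGF and 1.41 ± 0.38 CPM in N-VEGF cells (SD, n = 3). The groups did not overlap, which held for 6.49% of tested genes. Its log2 fold change of 1.27 (SE 0.29) was the 12th largest of 13608 in absolute size, and it did not pass (edgeR adjusted p = 1, or 0.311 with the block). Without dox its log2 ratio between the populations was 0.31 (SE 0.29, edgeR adjusted p = 1). The pairs gave 1.11, 0.068 and -0.014, and the value was 0.051 without N-VEGF library 1, which stood apart, and 0.54 without the suffix _290419 library of N-VEGF cells.

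Thbs1 (ENSMUSG00000040152, chromosome 2, 118111876 to 118127133, plus strand) lay apart between the populations within suffix _120519. Its NLS-N-VEGF libraries stood at 46.7, 41.5 and 119.7 CPM uninduced and at 44.8, 44.2 and 138.9 CPM induced. Its N-VEGF libraries stood at 27.4, 27.7 and 130.5 CPM uninduced and at 25.1, 26.6 and 118.3 CPM induced. In suffix _120519 the 4 NLS-N-VEGF libraries (41.5 to 46.7 CPM) all lay above the 4 N-VEGF libraries (25.1 to 27.7 CPM). Such separation was found in 4.69% of tested genes in either direction. Angpt1 separated in the same way, at 2.39 to 3.90 CPM against 1.12 to 2.28 CPM. In suffix _290419 the populations overlapped for Thbs1.

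In the fit on the 8 libraries of suffix _120519, planned as an alternative, Thbs1 was 1.72-fold higher in NLS-N-VEGF cells with dox (log2 fold change 0.78, SE 0.09, edgeR adjusted p = 0.0091). It was 1.60-fold higher without dox (log2 fold change 0.67, SE 0.09, edgeR adjusted p = 0.0357). The background in that fit was 11 of 13387 genes (0.0822%) with dox and 5 (0.0373%) without, and Thbs1 was the only member called. On all 12 libraries the log2 fold changes were 0.43 (SE 0.76) and 0.16 (SE 0.76), both with an edgeR adjusted p of 1, and with the block 0.57 (adjusted p = 0.605) and 0.38 (adjusted p = 0.939). In suffix _290419 the log2 ratio of NLS-N-VEGF to N-VEGF was 0.23 with dox and -0.13 without, from 1 library each. The higher Thbs1 level of NLS-N-VEGF cells was therefore found both with and without dox in suffix _120519, and the fit of all 12 libraries did not call it.

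The suffix comparison, which is not the dox contrast that picked Angptl4, gave the members' lowest adjusted p-values. The members were chosen with earlier results of these libraries known. With group in the model, 4 of the 8 members passed, 1 higher and 3 lower in suffix _290419, against a background of 45.6% of tested genes (22.2% higher and 23.5% lower). The count of members is thus near the background, and the size of 2 of the changes set them apart from most genes. The groups of libraries did not overlap for Thbs1, Thbs2 and Hgf, where 28% of tested genes had no overlap.

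Thbs1 had 25.1 to 46.7 CPM in suffix _120519 (median 34.6) and 118.3, 119.7, 130.5 and 138.9 CPM in suffix _290419. It was 3.69-fold higher, with a log2 change of 1.88 (SE 0.10, 95% CI 1.68 to 2.09, edgeR adjusted p = 2.72e-09), the 70th largest absolute change of 13608. The antisense gene Gm29233 overlaps 3.43% of its exon bases. Hgf had 84.4 to 118.2 CPM in suffix _120519 (median 99.4) and 17.5, 29.1, 31.7 and 31.8 CPM in suffix _290419. It was 3.64-fold lower, with a log2 change of -1.86 (SE 0.12, 95% CI -2.11 to -1.61, edgeR adjusted p = 2.53e-08), the 75th largest. The inhibitor Thbs1 and the inducer Hgf thus moved in opposite directions by about the same factor, whereas the inhibitors Thbs2 and Serpinf1, given below, were not higher.

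Thbs2, the paralog of Thbs1, went the other way from it. It had 430.5 to 591.2 CPM in suffix _120519 and 278.4, 403.4, 405.3 and 423.4 CPM in suffix _290419, with a log2 change of -0.45 (SE 0.08, edgeR adjusted p = 0.000325). Angptl4 was lower by 0.30 on the log2 scale, as given above. Angptl2 (ENSMUSG00000004105, chromosome 2, 33216069 to 33247717, plus strand) had 443.4 ± 25.5 CPM (SD, n = 8) against 412.4 ± 13.7 CPM (SD, n = 4), and its log2 fold change of -0.10 did not pass (SE 0.05, edgeR adjusted p = 0.116). Without the suffix _290419 library of NLS-N-VEGF cells without dox it was -0.16 and passed (edgeR adjusted p = 0.0447). Serpinf1 (ENSMUSG00000000753, chromosome 11, 75409769 to 75422701, minus strand) had a log2 change of -0.01 (95% CI -0.14 to 0.13). Angpt1 and Angpt2 were at 0.09 (95% CI -0.32 to 0.51) and 0.16 (95% CI -0.39 to 0.70).

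**Figure D3:**
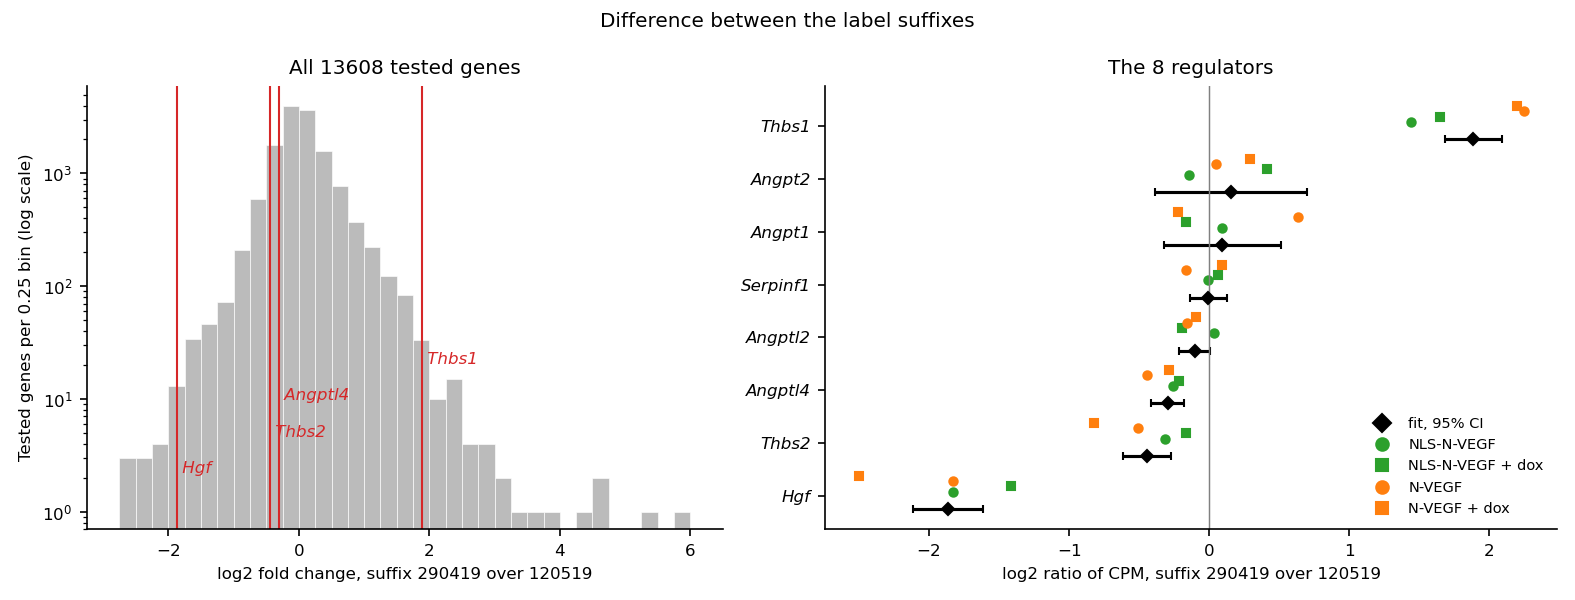
Left, distribution of the log2 fold change of suffix _290419 over _120519 for all 13608 tested genes (count axis on a log scale), with red lines at the 4 members that passed. Right, the fitted log2 fold change of each member with its 95% CI (black) and the ratio within each group (coloured). Thbs1 at 1.88 and Hgf at -1.86 lie in the tails, with all 4 groups on the same side.

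The suffix difference of Thbs1, Hgf and Thbs2 had the same direction in every group. The suffix _290419 library had 2.71 and 3.12 times the mean Thbs1 CPM of suffix _120519 in NLS-N-VEGF cells without and with dox, and 4.74 and 4.58 times in N-VEGF cells. Hgf was at 0.282 and 0.374 times in NLS-N-VEGF and 0.282 and 0.177 times in N-VEGF cells. Thbs2 was at 0.805 and 0.893 times in NLS-N-VEGF and 0.701 and 0.566 times in N-VEGF cells.

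A test of whether the suffix effect differed between the populations was added after the data were seen. The log2 suffix effect on Thbs1 was smaller in NLS-N-VEGF cells by 0.68 (log2 difference -0.68, SE 0.11, 95% CI -0.90 to -0.45). It did not pass over all genes in edgeR (adjusted p = 0.171), where 0 of 13608 genes passed (0%, 1057 at an unadjusted p under 0.05). It passed in DESeq2 (adjusted p = 0.00148, 20 genes called), with no filter beyond 1 count (adjusted p = 0.000424, 81 genes) and without library 1 of N-VEGF cells without dox (edgeR adjusted p = 0.0028, 31 genes). The corresponding differences for Thbs2 and Hgf were 0.43 (SE 0.12, edgeR adjusted p = 0.493) and 0.51 (SE 0.19, edgeR adjusted p = 0.616). They were lowest without the suffix _290419 library of induced N-VEGF cells, at 0.28 and 0.21, and highest without that of uninduced N-VEGF cells, at 0.60 and 0.90. Without library 1 of uninduced N-VEGF cells, Thbs2 had a difference of 0.46 and passed (edgeR adjusted p = 0.0332). Between cells with and without dox, 0 of the 7 tested members differed in suffix effect past the threshold in edgeR or DESeq2, and 0 had an unadjusted p under 0.05.

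**Figure D4:**
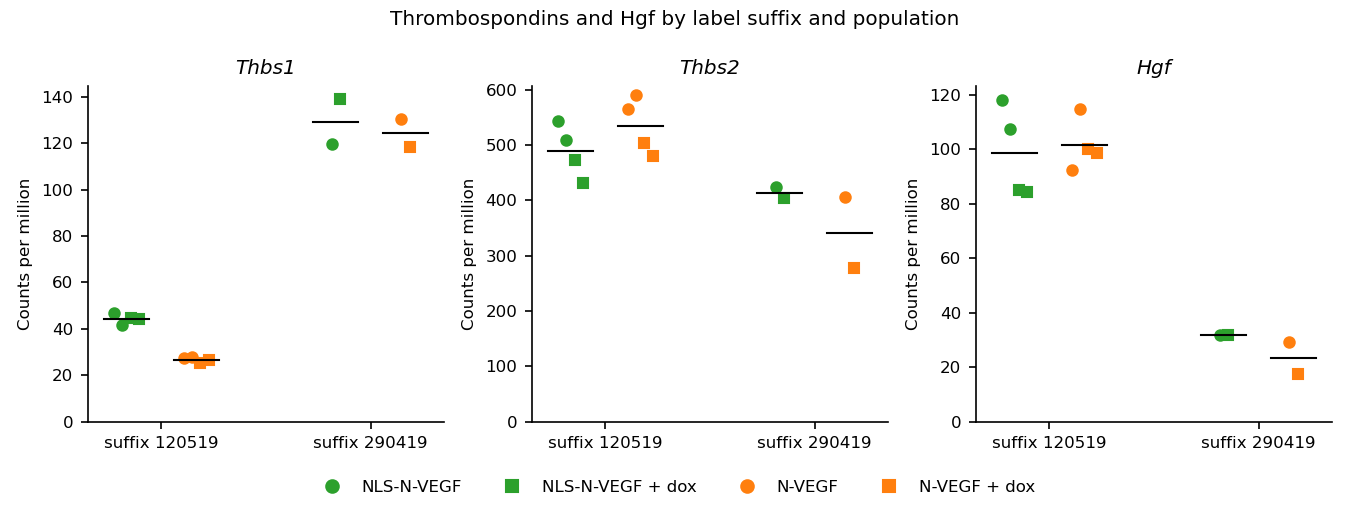
CPM of Thbs1, Thbs2 and Hgf by suffix and population, on linear axes that start at 0. Points are libraries, circles without and squares with dox, and lines are means. NLS-N-VEGF cells had 41.5 to 46.7 CPM of Thbs1 in suffix _120519, above the 25.1 to 27.7 CPM of N-VEGF cells, and in suffix _290419 the populations overlapped.

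Markers of smooth muscle and pericytes moved with the suffix. The sum was 234 to 317.3 CPM in suffix _120519 and 375.2 to 557.7 CPM in suffix _290419. Cspg4 and Acta2 averaged 219.9 and 113.2 CPM over all libraries. Myh11, Des, Cnn1 and Rgs5 averaged only 0.26, 0.38, 1.77 and 0.057 CPM, and Rgs5 was at 0 in 5 libraries. The sum therefore says little about these cell types. The part of Cspg4 and Acta2 in the differences of Thbs1, Thbs2 and Hgf was not tested. Fewer cells of a type and less RNA per cell cannot be told apart in these bulk libraries. Fibroblast markers did not separate the suffixes, at 11480 to 14390 CPM against 11770 to 13410 CPM.

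Genes most like the other members were named by the same measure. For Thbs1 they were Ltbp2, a matrix protein of the latent TGF-beta binding family (r 0.986), Prpf3, a splicing factor (0.984), and Slc3a1, an amino acid transporter subunit (0.977). For Hgf they were Klhl24 (0.990), Plekhh2 (0.989) and the zinc finger gene Zfp521 (0.987), and for Thbs2 Hlf, a PAR bZIP transcription factor (0.973), the alarmin Il33 (0.970) and the pocket protein gene Rbl2 (0.970). Genes with like values were many for the members that separated by suffix, where 277, 793 and 142 genes had an r over 0.9 with Thbs1, Hgf and Thbs2, against 4 for Angptl4. With each suffix centred, the r of Ltbp2 with Thbs1 was 0.882, of Klhl24 with Hgf 0.897 and of Hlf with Thbs2 0.959. Antisense genes overlap 9.34% of exon bases in Ltbp2, 26.5% in Slc3a1 and 20.97% in Rbl2. By the same measure Angpt1 was most like Inhba, a subunit of activin (0.923), and Fgf2 (0.872) was also among its 3 most alike genes, with Alcam (0.90) between them. Serpinf1 was most like Csrp1 (0.950) and Angptl2 most like Leprot (0.931). For Angpt2 the highest value was 0.834, and no gene reached 0.9.

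Related genes were taken from lists. Family relatives were mostly silent, since only 4 of 14 passed the filter, Angptl6, Thbs3 and Serpinh1 among them. Between suffixes 2 of the 4 passed (50%, against a background of 45.6%), and the collagen chaperone Serpinh1 was lower (442.5 to 345.0 CPM, log2 fold change -0.36, edgeR adjusted p = 0.000316). Angptl6 and Thbs3 did not pass (edgeR adjusted p = 0.145 and 0.113).

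Of 38 receptors and partners of the members, 26 were tested, and 4 were higher and 12 lower in suffix _290419 (median log2 fold change -0.16, against 0.01 over all genes). The called share of 61.5% stood beside a background of 45.6%. Met, the receptor of Hgf, was lower together with its ligand, from 310.1 to 258.4 CPM (log2 fold change -0.26, edgeR adjusted p = 0.00287), and was named after its values were seen. Among those with the largest changes, integrin subunit Itgb3, which binds thrombospondins, had a log2 change of -0.51 (edgeR adjusted p = 0.000833) and Mst1r, the receptor related to Met, -0.65 (edgeR adjusted p = 0.0279). Plat, the tissue plasminogen activator, had -0.45 (edgeR adjusted p = 7.72e-05), and Plau, the urokinase that can activate Hgf, had 0.51 (edgeR adjusted p = 0.000151). Calr and Ltbp1 were higher, at 0.41 and 0.27 (edgeR adjusted p = 0.000297 and 0.000403). Cd47, a thrombospondin receptor, had 34.7 and 33.7 CPM (edgeR adjusted p = 0.562), and Cd36 had 0.02 CPM and was not tested. Lpl, the enzyme that Angptl4 inhibits, had 11.2 CPM in suffix _120519 and 8.86 CPM in suffix _290419 (edgeR adjusted p = 0.0135).

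Among 56 other secreted regulators of angiogenesis, 45 were tested, 11 were higher and 14 lower (55.6% called, against a background of 45.6%, median log2 fold change 0.00). Connective tissue growth factor Ctgf (Ccn2) was 2.11-fold higher (log2 fold change 1.08, edgeR adjusted p = 1.75e-06), and the peptide Apln and the chemokine Cxcl5 had 0.84 and 0.81 (edgeR adjusted p = 2.35e-07 and 0.000298). Lower were the metalloproteinase inhibitor Timp3 (log2 fold change -1.09, edgeR adjusted p = 3.81e-06), Wnt5a (-1.06, edgeR adjusted p = 2.26e-08) and the semaphorin Sema3c (-0.98, edgeR adjusted p = 0.00677). Antisense genes overlap 23.2% of the exon bases of Ctgf, 21.3% of those of Timp3 and 4.58% of those of Wnt5a.

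PPAR genes and their targets were followed because Angptl4 is a known target. With dox, 0 of the 21 tested passed in either population in edgeR or DESeq2. Over all genes edgeR called 0.022% in NLS-N-VEGF and 0.0367% in N-VEGF cells. At an unadjusted edgeR p under 0.05 stood 0 of the 21, against 2.34% and 1.48% of all genes. The median log2 fold change of the list was -0.04 in NLS-N-VEGF and -0.08 in N-VEGF cells, against 0.00 over all genes in both. With the block 1 passed in NLS-N-VEGF cells, Txnip at -1.45 (edgeR adjusted p = 0.00444), and 0 in N-VEGF cells. Txnip binds thioredoxin and limits glucose uptake, and an antisense gene overlaps 19.4% of its exon bases. No gene of this list was called higher under dox in edgeR, with or without the block. Over all genes 0.0882% in NLS-N-VEGF and 0.0808% in N-VEGF cells were called higher with the block. A count of 0 in a list of 21 is thus near the background, and a part of PPARs in the Angptl4 values was not tested. Between suffixes 5 were higher and 9 lower (66.7% called, against a background of 45.6%), with Txnip at -2.17 (edgeR adjusted p = 2.87e-07), Cpt1a, the entry enzyme of mitochondrial fat oxidation, at -0.49 (edgeR adjusted p = 0.000316) and Acaa2 at -0.39 (edgeR adjusted p = 0.00126). Pdk4, which restrains pyruvate oxidation, Fabp5 and Hilpda were higher, at 1.01, 0.37 and 0.19 (edgeR adjusted p = 0.000737, 0.000288 and 0.0369).

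In the dox contrasts the family relatives, receptors and partners gave 0 calls with and without the block in either population, and DESeq2 called 0 as well. At an unadjusted edgeR p under 0.05 stood 0 of the 4 relatives, and 4 and 1 of the 26 receptors and partners (15.4% and 3.85%) in NLS-N-VEGF and N-VEGF cells. Over all genes this share was 2.34% and 1.48%. Of the other secreted regulators, 0 passed without the block in edgeR or DESeq2 (3 and 7 of 45 at an unadjusted edgeR p under 0.05, or 6.67% and 15.6%), and with it Adamts1, a metalloprotease that releases anti-angiogenic fragments of thrombospondins, was lower with dox in N-VEGF cells (log2 change -0.46, edgeR adjusted p = 0.0433). Its substrate Thbs2 had -0.32 in the same fit and did not pass, as given above. Between the populations all 4 lists gave 0 calls with and without dox in both edgeR fits and in DESeq2. At an unadjusted edgeR p under 0.05 without the block stood, with dox, 4 of 45 other secreted regulators (8.89%) and 1 of 26 receptors and partners (3.85%), against 1.18% of all genes. Without dox these were 2 (4.44%) and 2 (7.69%), against 0.603%. The family relatives and the PPAR list had 0 in both.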

How the data were processed

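RNA was measured in 12 libraries of mouse fibroblasts (TruSeq RNA kit, version 2). The deposited table holds raw read counts for each gene, which the authors made by trimming reads with Trim Galore and cutadapt 1.10, aligning them with TopHat2 2.1.0 and Bowtie2 2.2.6 to GRCm38 and counting with HTSeq 0.6.1, versions per the submitters' processing notes. The strand setting of the counting is not given in the sources used here, and totals were 13549331 to 18982127 per library.

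Counts were tested with edgeR 4.0.16 in R 4.3.3 (filterByExpr by group, TMM, quasi-likelihood F test, two-sided, 1 mean per group, 12 libraries), with Benjamini-Hochberg adjustment over 13608 features and a threshold of 0.05. The suffix comparison added the label suffix to the groups. Calls were made per contrast. SE came from the F statistic, intervals are at 95%, and floors of 3 counts cover counting error only. CPM used TMM-scaled library sizes, log2 CPM a pseudocount of 2, and TPM the exon bases of GENCODE M21 (same build). Scripts were tested on simulated counts.

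Labels do not say whether libraries came from separate cultures, so p-values measure the spread between these libraries. Libraries that share number and suffix deviated together from their group means (r 0.319 to 0.79 in 18 pairs, over 12058 genes), so the labels were used as a replicate block in an alternative fit. No replicates agreed within sampling noise. Other alternatives were DESeq2 1.42.0, RLE scaling, other count filters, subsets of libraries and leaving out each library.

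Members and gene lists were chosen with earlier results of these data known. By rule, the text names the 8 members, up to 3 genes a side per list and comparison with the largest change past the threshold and at least 1 CPM, and the 3 genes most like each member. Met, Cd36, Cd47, Lpl, Tek and the genes named under the block were added after their values were seen. Angptl4 got no p in dox contrasts. One gene of the lists is not reported here.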

Additional observations from a re-analysis of the deposited data

Results flagged for a closer look

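The dox ratios of Angpt1 had opposite signs in the populations, with all 3 pairs higher in NLS-N-VEGF and all 3 lower in N-VEGF cells. The share of all genes with this pattern was not counted, and neither dox effect passed. The difference of the log2 effects was 0.96 (SE 0.41), and it did not pass over all genes (edgeR adjusted p = 1). Over the fits that each left out a library the difference lay between 0.73 and 1.22.

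For Angptl4 the population difference changed sign with dox. Without dox all 3 pairs were higher in NLS-N-VEGF cells, and with dox all 3 were lower. The share of all genes with this pattern was not counted. The change of the log2 difference was -0.33 (SE 0.20). It uses the dox contrast that chose the gene, and the difference was not tested.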

How the results depend on the processing

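Counts of genes called moved with the processing, and the cause was not tested. The main fit of dox and populations held no suffix term, and its common biological coefficient of variation, edgeR's measure of spread between libraries, was 15.5%. It was 7.93% with the suffix added and 7.86% with the block. An unadjusted edgeR p under 0.05 in the main fit was found for 2.34% and 1.48% of genes for dox in NLS-N-VEGF and N-VEGF cells. Between the populations it was 1.18% with and 0.603% without dox. For dox in NLS-N-VEGF cells (3 genes) DESeq2 called 12, a fit with no filter beyond 1 count 53, the fit with number and suffix as a replicate block 17, libraries of suffix _120519 alone 109, the suffix as a covariate, chosen after seeing the data, 15, and the pair of groups alone 0. For dox in N-VEGF cells (5 genes) these fits called 8, 36, 15, 16, 13 and 1. Leaving out a library gave 0 to 3 genes and 1 to 7 genes. For the difference of the dox effects (0 genes) no filter gave 1 and suffix _120519 alone 4. For NLS-N-VEGF against N-VEGF with dox (0 genes) no filter gave 9, the replicate block 2, suffix _120519 alone 11 and the covariate 2, and without dox (0 genes) no filter gave 10 and suffix _120519 alone 5. In suffix _120519 alone 1 member, Thbs1, passed in both, and the replicate block changed no member's call. For the difference of suffix effects between the populations (0 members, 0 genes) DESeq2 called 1 member and 20 genes, no filter 1 and 81, and leaving out a library 0 to 2 and 0 to 31 (31 without N-VEGF library 1, 21 without the suffix _290419 library of uninduced NLS-N-VEGF cells). Between dox states no filter called 20 genes and leaving out a library 0 to 3. Of 31 member results, 18 had no reversal or changed call.

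Directions turned only for members with changes near 0 or libraries far apart. Serpinf1 with dox in N-VEGF cells (0.0029 on the log2 scale) was -0.0043 in DESeq2 and with RLE scaling, -0.0083 without a filter, -0.00031 with at least 10 counts, -0.094 in suffix _120519 alone and -0.0097 in the pair of groups. Between suffixes Serpinf1 was 0.014 with at least 10 counts and 0.053 in libraries numbered 2 alone, and Angpt1 -0.078 in the latter. Leaving out a library gave -0.073 to 0.097, -0.042 to 0.043 and -0.092 to 0.204 for these, -0.45 to 0.11 for Angpt2 with dox in NLS-N-VEGF and -0.36 to 0.073 in N-VEGF cells, -0.076 to 0.043 for Angptl2 with dox in N-VEGF cells, and -0.34 to 1.56 with and -0.49 to 1.31 without dox for Thbs1 between the populations. For Angptl4 with dox it gave 0.23 to 0.38 in NLS-N-VEGF and 0.49 to 0.77 in N-VEGF cells. Depth limits Angpt1 and Angpt2, at 12 to 61 counts.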
